A study of Mus musculus with 8 samples.

Results

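Ubiquitin ligases attach ubiquitin to other proteins and so mark them for breakdown or sorting, and some of them raise the threshold at which T cells respond to antigen. Around this theme 10 genes were chosen, not all of them ligases or known for this role. The accessibility peaks described here lie nearest to these 10: Itch, Cblb, Cbl, Rnf128, Rchy1, Peli1, Ndfip1, Stub1, Nedd4 and Rc3h1. A peak was taken when its nearest RefSeq protein-coding gene (GRCm38.p6, the assembly behind mm10) was one of these and lay at most 50 kb away, which gave 89 of 57199 peaks. The genes were proposed with results of the Flcn KO against WT comparison known, among them the lower peak at Rchy1 given below. Counts and changes are therefore descriptions of these loci and do not support the choice of genes.

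The assay was ATAC-seq, which reads out open DNA by where a transposase can cut it, applied to regulatory T (Treg) cells from mouse spleen. The Flcn KO group (4 libraries) came from mixed bone-marrow chimeras carrying Foxp3Cre and Flcnfl/fl, and the WT group (4 libraries) from WT mixed bone-marrow chimeras. Cells of both groups were sorted as CD45.2+, CD45.1-, CD4+ and Foxp3-YFP+, so both carry the Foxp3-YFP reporter. Foxp3-driven Cre is designed to act in cells that express or have expressed Foxp3, and whether it acted elsewhere was not tested. The labels give no ages, no second marrow donor and no word on whether WT cells carry Cre. Folliculin, the product of Flcn, works at the lysosome in amino acid signalling and holds TFEB and TFE3, which drive lysosomal genes, out of the nucleus.

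The 10 genes encode several kinds of protein. Cbl-b and Cbl, the products of Cblb and Cbl, are RING-type ligases that turn down signalling from the T cell receptor, and Cbl-b makes activation depend on CD28. Rnf128 encodes GRAIL, a membrane ligase known from T cell anergy. Itch and Nedd4 encode HECT-type ligases, and Ndfip1 encodes an adaptor, not itself a ligase, that recruits and activates them. Mice without Itch or Ndfip1 develop inflammatory disease, whereas mouse Nedd4 has been described as promoting T cell activation by targeting Cbl-b, which runs against the name of the set. Peli1 encodes Pellino1, known in mouse T cells for targeting the NF-kB subunit c-Rel. Stub1 encodes CHIP, a chaperone-linked ligase reported to target Foxp3. Rc3h1 encodes Roquin-1, a RING protein that represses mRNAs such as that of Icos, and Rchy1 encodes Pirh2, a RING ligase best known for targeting p53.

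Across these loci, accessibility was called lower in Flcn KO cells at 2 of 78 tested peaks and higher at 0, and 76 did not pass the test (edgeR quasi-likelihood test, Benjamini-Hochberg adjusted p below 0.05 over 47859 tested peaks). The 2 lower peaks lie just beyond the far end of Rchy1 and inside Cblb. Over all tested peaks 2.37% were called in either direction, 1.35% higher and 1.02% lower, and nothing is read from the 2.56% called here. The Rchy1 peak was known to be lower when the genes were chosen, so its place among the calls was fixed by that choice; without it 1 of 77 tested peaks was called (1.30%). DESeq2 called the same numbers, and limma-voom called 1 lower and 0 higher. At an unadjusted p below 0.05, 3 peaks were higher and 5 lower in Flcn KO, which is 10.3% of the tested ones, beside 12.9% over all tested peaks (6.87% higher, 5.99% lower); without the far Rchy1 peak 4 were lower. The median log2 fold change was 0.08 over the 78 peaks and 0.00 over all tested peaks, and 68 of the 78 lay within 0.5 log2 units of 0 (87.2%, beside 80.3% over all). In bulk libraries, fewer cells with an open site and less opening per cell cannot be told apart.

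**Figure D1:**
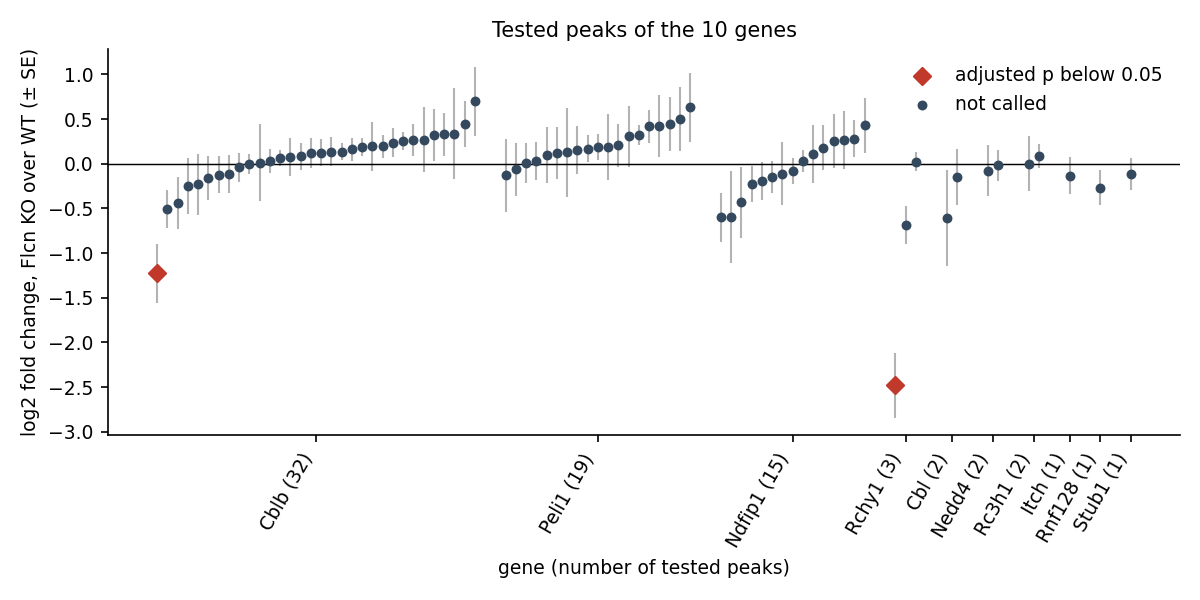
Log2 fold change of each tested peak, Flcn KO over WT, grouped by gene; diamonds mark peaks with an adjusted p below 0.05. The 2 diamonds, at Rchy1 (-2.48) and Cblb (-1.22), are the lowest of the 78 points, and the one at Rchy1 was known when the genes were chosen.

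The 8 libraries held between 2723344 and 5111728 counts in all peaks, Flcn KO library 4 being the shallowest. Levels are given in CPM, counts scaled to a common library total after TMM adjustment of the totals. Peaks were present at all 8 Treg and CD4 T cell marker genes, summing to 1625 to 1937 CPM in Flcn KO and 1569.5 to 1710.2 CPM in WT libraries. Of markers of other blood cells, peaks at myeloid genes summed to 87.0 to 94.3 CPM in Flcn KO and 99.7 to 110.5 CPM in WT (3 of 5 genes, with no peak at Csf1r or Lyz2), and those at erythroid genes to 46.9 to 55.7 CPM in Flcn KO and 31.1 to 39.0 CPM in WT (3 of 3 genes). The groups did not overlap in either sum. Of the erythroid genes, only Gata1 separated the groups (25.1 to 38.3 CPM in Flcn KO, 16.6 to 18.3 CPM in WT), while Klf1 and Epor overlapped. Of the myeloid genes with peaks, only Itgam did so (6.86 to 7.82 CPM in Flcn KO, 8.92 to 14.1 CPM in WT), while Cd14 and Cebpb overlapped. The part of these lists in the changes below was not tested. CD8 T cell markers (3 of 3) gave 46.9 to 72.4 CPM in Flcn KO and 48.4 to 68.3 CPM in WT. NK cell markers (3 of 3) gave 229 to 309 CPM in Flcn KO and 215 to 251 CPM in WT. The groups overlapped in both sums. Of single peaks at the NK cell markers, 1 was called higher and 1 lower in Flcn KO, of 11 tested. At the Treg and CD4 T cell markers 3 were called higher and 1 lower, of 87 tested. At the erythroid markers 1 was called higher and 0 lower, of 4 tested. At the CD8 T cell markers (6 tested) and the myeloid markers (12 tested) 0 were called. Most of the NK cell sum came from peaks at Klrb1c (219 to 303 CPM in Flcn KO, 209 to 242 CPM in WT). At Flcn itself, the 2 tested peaks were not called (means of 13.6 CPM in Flcn KO against 16.3 CPM in WT at the first, 6.09 CPM in Flcn KO against 9.06 CPM in WT at the second). Weak peaks inside Flcn, below the count filter, held 16, 4, 8 and 16 counts in Flcn KO against 0, 2, 0 and 0 in WT, and 2, 9, 18 and 21 in Flcn KO against 0, 0, 2 and 0 in WT. Peaks of open DNA do not measure whether the floxed part was deleted.

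The sequences before the start sites are shown because the highest peak of each of these 6 genes sits there, while both called peaks lie elsewhere. RefSeq start-site windows (GRCm38.p6) matched 8 of the 10 genes. A peak overlapped a window of 6 of them, namely Rchy1, Cblb, Peli1, Stub1, Rc3h1 and Rnf128, as it did for 49.9% of 17491 protein-coding genes with a window, and none overlapped those of Cbl and Nedd4. The 250 bases before the start site are printed 5′ to 3′ on the gene's own strand, and for Rchy1 before the outer of its start sites. Capitals mark matches on either strand to CACGTG (the core of E-boxes bound by TFEB and TFE3), TGACTCA (AP-1), CCGGAAG (ETS), CCAAT (the CCAAT box) and GGGCGG (the GC box).
Rchy1 (chr5:91963069-91963318, minus strand): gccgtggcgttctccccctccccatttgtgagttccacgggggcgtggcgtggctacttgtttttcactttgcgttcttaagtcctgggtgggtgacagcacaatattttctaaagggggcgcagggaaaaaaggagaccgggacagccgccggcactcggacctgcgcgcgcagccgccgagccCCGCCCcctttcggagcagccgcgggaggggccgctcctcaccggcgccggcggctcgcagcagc
Cblb (chr16:52031299-52031548, plus strand): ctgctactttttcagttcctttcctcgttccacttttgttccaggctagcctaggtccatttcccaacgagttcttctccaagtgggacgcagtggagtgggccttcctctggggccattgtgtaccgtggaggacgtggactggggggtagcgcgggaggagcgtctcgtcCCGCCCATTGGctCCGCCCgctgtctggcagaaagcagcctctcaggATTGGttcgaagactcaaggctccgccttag
Peli1 (chr11:21091074-21091323, plus strand): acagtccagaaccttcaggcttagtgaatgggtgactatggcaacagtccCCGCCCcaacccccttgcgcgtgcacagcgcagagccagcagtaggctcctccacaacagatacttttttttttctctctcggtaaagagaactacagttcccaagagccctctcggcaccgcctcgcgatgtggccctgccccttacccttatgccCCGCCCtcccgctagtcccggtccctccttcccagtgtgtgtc
Stub1 (chr17:25832920-25833169, minus strand): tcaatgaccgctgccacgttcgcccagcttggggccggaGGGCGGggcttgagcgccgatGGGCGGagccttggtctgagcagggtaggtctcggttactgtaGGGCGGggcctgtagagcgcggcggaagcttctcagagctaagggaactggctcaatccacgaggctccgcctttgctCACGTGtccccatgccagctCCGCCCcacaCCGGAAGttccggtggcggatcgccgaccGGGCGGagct
Rc3h1 (chr1:160906161-160906410, plus strand): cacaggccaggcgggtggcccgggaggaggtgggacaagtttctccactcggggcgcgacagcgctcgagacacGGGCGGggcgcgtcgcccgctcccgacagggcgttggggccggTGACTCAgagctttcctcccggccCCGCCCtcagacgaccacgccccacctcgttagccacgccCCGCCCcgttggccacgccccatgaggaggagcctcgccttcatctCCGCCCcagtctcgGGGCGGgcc
Rnf128 (chrX:139610370-139610619, plus strand): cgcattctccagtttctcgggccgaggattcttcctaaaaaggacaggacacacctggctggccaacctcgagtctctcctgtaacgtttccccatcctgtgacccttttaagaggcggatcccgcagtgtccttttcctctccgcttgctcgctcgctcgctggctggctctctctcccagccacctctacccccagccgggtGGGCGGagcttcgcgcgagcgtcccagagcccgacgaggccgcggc
Of these 6, Stub1 holds CACGTG, 69 bases before its start site, and also CCGGAAG, which occur in 6.02% and 6.91% of 32851 RefSeq windows of this length. Rc3h1 holds TGACTCA, 133 bases before its start, as 4.46% of windows do. Cblb holds 2 CCAAT matches (33.8% of windows hold any), and GGGCGG (32.7% of windows) occurs 5 times each in Rc3h1 and Stub1, 2 times each in Cblb and Peli1 and 1 time each in Rchy1 and Rnf128. A match describes the letters of the window and does not show that a factor binds there.

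Rchy1 carried 3 peaks, at its start sites, inside the gene and beyond its far end, with log2 fold changes of 0.02, -0.69 and -2.48. The broad start-site peak (chr5:91962252-91963272) had 82.5, 76.9, 75.1 and 78.5 CPM in Flcn KO libraries 1 to 4, against 84.1, 72.0, 80.3 and 71.3 CPM in WT libraries 1 to 4. The groups overlapped, and the log2 fold change of 0.02 (SE 0.11) had a 95% interval of -0.18 to 0.23.

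The second Rchy1 peak lies inside the gene, its centre 993 bp downstream of the inner start site (chr5:91961410-91961717), and had 12.5, 12.3, 9.45 and 10.7 CPM in Flcn KO, against 15.8, 22.3, 16.3 and 18.2 CPM in WT. Every Flcn KO library lay below every WT library. It was named after its values were seen, and the change did not pass the test (log2 fold change -0.69 with SE 0.22, adjusted p = 0.0864 by edgeR).

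The third Rchy1 peak lies 1401 bp beyond the far end of the gene (chr5:91946980-91947441), its centre 15.3 kb downstream of the inner start site. The second nearest protein-coding gene, Odaph, is 40.0 kb away on the other side of Rchy1, past its start sites. It had 3.52, 0.534, 5.72 and 2.29 CPM in Flcn KO, against 22.0, 23.2, 12.7 and 11.8 CPM in WT. The underlying counts were 18, 2, 23 and 6 in Flcn KO and 106, 104, 50 and 48 in WT. All Flcn KO libraries were below all WT libraries, and WT libraries 1 and 2 were higher than WT libraries 3 and 4. The mean was 3.01 ± 2.18 CPM in Flcn KO and 17.4 ± 5.99 CPM in WT (SD, n = 4 each), a log2 fold change of -2.48 (SE 0.36), or 5.59-fold lower in Flcn KO. This result was known when the genes were chosen, so its call is a description and supports nothing. Under the 16 other settings and left-out libraries the change lay between -2.97 and -2.14.

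**Figure D2:**
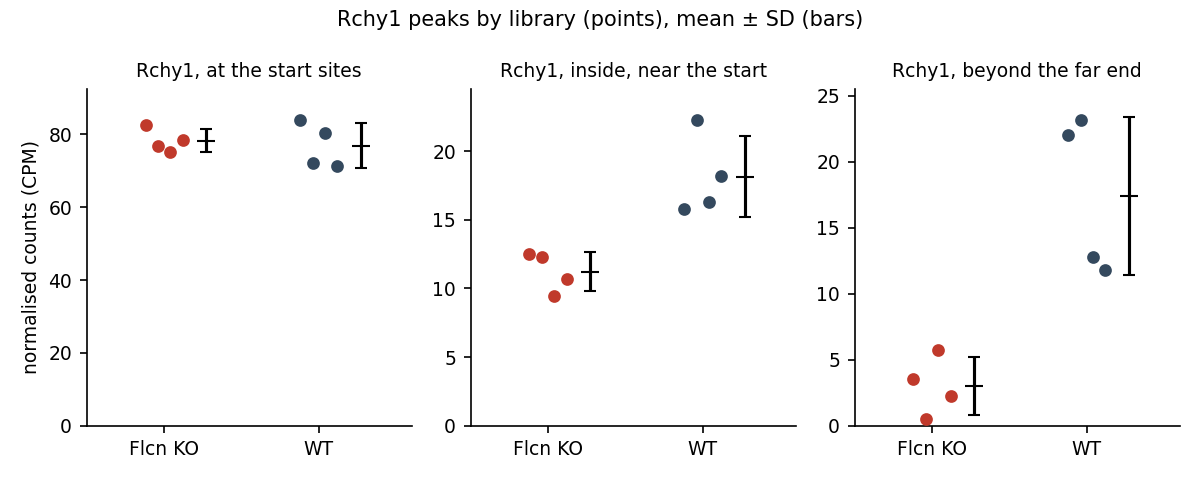
Normalised counts (CPM, linear axes from 0) of the 3 Rchy1 peaks in each library, Flcn KO left and WT right, with mean and SD. At the start sites the groups overlap, and beyond the far end the Flcn KO libraries lie between 0.534 and 5.72 CPM, below the WT libraries at 11.8 to 23.2 CPM.

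Cblb had 32 peaks, the most of the 10 genes, and all were tested. Of these, 29 overlapped the gene, which spans 177 kb. The start-site peak (chr16:52030982-52031746), the highest of all 89, had 219.6, 271, 259.6 and 306 CPM in Flcn KO libraries 1 to 4, against 255, 240.5, 256 and 257 CPM in WT libraries 1 to 4. The groups overlapped, with a wider spread among Flcn KO libraries (SD 35.8 CPM) than among WT libraries (SD 7.76 CPM). The log2 fold change of 0.06 (SE 0.09) had a 95% interval of -0.11 to 0.24.

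A weak peak inside Cblb, 76.5 kb downstream of the start site (chr16:52107851-52108285), was the other peak called lower. It had 5.47, 3.21, 3.98 and 3.05 CPM in Flcn KO, against 7.89, 12.9, 5.10 and 11.8 CPM in WT, from counts of 28, 12, 16 and 8 in Flcn KO and 38, 58, 20 and 48 in WT. Flcn KO library 1 lay just above WT library 3, so the groups overlapped at their edges. The mean fell to 3.93 ± 1.11 CPM in Flcn KO, against 9.43 ± 3.61 CPM in WT (SD, n = 4 each), and the change was called (log2 fold change -1.22 with SE 0.33, adjusted p = 0.0349 by edgeR). The call was lost under limma-voom (adjusted p = 0.105) and without Flcn KO library 2 (0.113), 3 (0.0819) or 4 (0.101) or WT library 2 (0.206) or 4 (0.138), with edgeR in the last 5.

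At the other 31 Cblb peaks the test was not passed. Of all 32 log2 fold changes 23 were above 0, and they ranged from -1.22 to 0.70 with a median of 0.12. The following 2 peaks were named after their values were seen, for an unadjusted p below 0.05. A strong peak 98.1 kb downstream of the start (chr16:52129416-52129927) had 101, 115, 135 and 137 CPM in Flcn KO, against 109, 102, 106 and 90.5 CPM in WT (log2 fold change 0.26 with SE 0.10, adjusted p = 0.243 by edgeR). A peak 24.3 kb upstream (chr16:52007011-52007423) had 12.1, 10.7, 14.4 and 9.91 CPM in Flcn KO, against 19.5, 18.3, 15.3 and 14.3 CPM in WT (log2 fold change -0.51 with SE 0.22, adjusted p = 0.285 by edgeR). The groups overlapped at both.

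**Figure D3:**
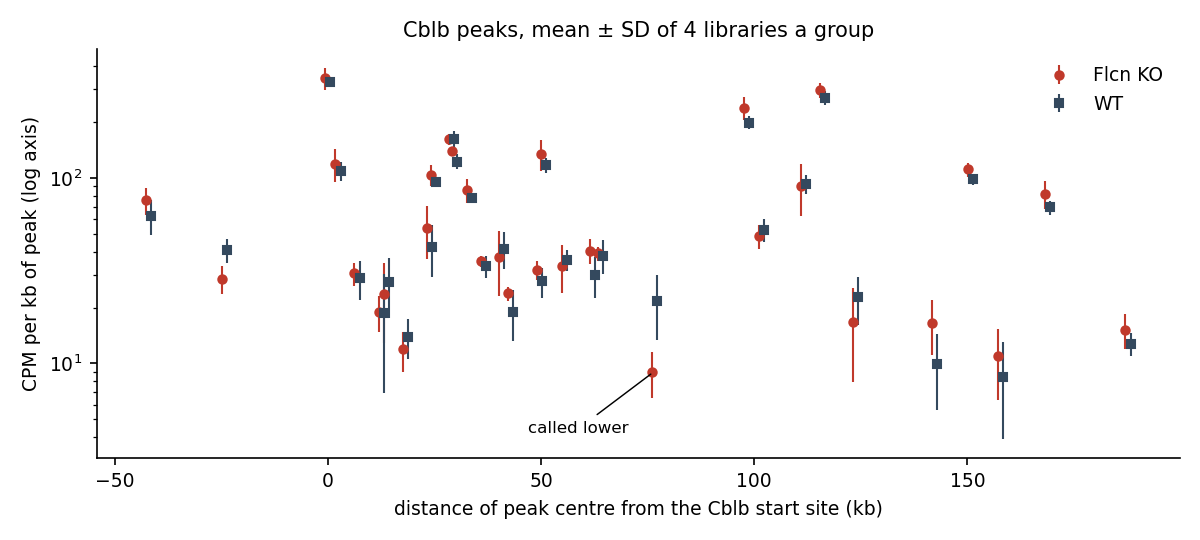
Level of each Cblb peak (CPM per kb of peak, log axis) against the distance of its centre from the start site in kb, as mean ± SD of 4 Flcn KO and 4 WT libraries. At 76.5 kb, where the called peak lies, the Flcn KO mean is 9.03 and the WT mean 21.7 CPM per kb.

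Cbl, the close relative of Cblb, had 5 peaks inside the gene and only 2 passed the count filter. The higher (chr9:44181554-44181924) had 3.13, 10.7, 6.96 and 6.86 CPM in Flcn KO, against 6.64, 7.58, 8.67 and 7.38 CPM in WT, with overlapping groups (log2 fold change -0.15 with SE 0.32, adjusted p = 0.906 by edgeR). The other (chr9:44168450-44168733) averaged 2.38 ± 1.22 CPM in Flcn KO and 3.82 ± 3.06 CPM in WT (SD, n = 4 each). Rnf128 had a single peak (chrX:139610048-139610808), over a start site inside the gene's span, whose preceding bases are printed above. It had 29.1, 14.7, 23.4 and 19.1 CPM in Flcn KO, against 20.3, 30.6, 24.5 and 30.0 CPM in WT. The groups overlapped (log2 fold change -0.27 with SE 0.19, adjusted p = 0.623 by edgeR, 95% interval -0.65 to 0.11).

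Of the HECT ligases, Itch had 2 peaks, 1 of them tested. That peak overlaps an end of the gene (chr2:155133300-155133662) and had 14.9, 16.6, 14.4 and 13.0 CPM in Flcn KO, against 17.0, 16.7, 12.2 and 18.7 CPM in WT (log2 fold change -0.13 with SE 0.21, adjusted p = 0.865 by edgeR). Nedd4 had 3 peaks, 2 of them tested. Its highest lies 1792 bp before the gene (chr9:72660094-72660539) and had 24.2, 21.4, 25.4 and 21.3 CPM in Flcn KO, against 27.8, 23.2, 23.5 and 19.2 CPM in WT, with overlapping groups (log2 fold change -0.02 with SE 0.18, adjusted p = 0.982 by edgeR). The other tested peak, 16.9 kb beyond the gene (chr9:72766729-72767067), averaged 7.33 ± 1.35 CPM in Flcn KO and 7.72 ± 1.72 CPM in WT (SD, n = 4 each). A peak inside Nedd4 below the count filter held 12, 2, 2 and 0 counts in Flcn KO libraries, against 12, 8, 10 and 10 in WT libraries.

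Ndfip1, the adaptor of both, had 17 peaks, of which edgeR tested 15 and called 0 (1 lower and 0 higher at an unadjusted p below 0.05; DESeq2 and limma-voom also called 0). Its highest peak lies 12.3 kb outside the gene (chr18:38406162-38406651) and had 84.5, 61.5, 80.3 and 70.1 CPM in Flcn KO, against 88.0, 74.3, 72.9 and 56.1 CPM in WT (log2 fold change 0.03 with SE 0.12, adjusted p = 0.960 by edgeR). At an end of the gene, a peak at chr18:38418693-38419071 averaged 42.1 ± 6.06 CPM in Flcn KO and 44.6 ± 7.09 CPM in WT (SD, n = 4 each), while its neighbour at chr18:38419196-38419639 averaged 17.1 ± 5.07 CPM in Flcn KO and 19.8 ± 4.37 CPM in WT. The lowest p was at a peak inside the gene (chr18:38421913-38422140) with 5.87, 9.08, 5.47 and 5.33 CPM in Flcn KO, against 10.8, 9.37, 8.67 and 10.3 CPM in WT. Flcn KO library 2 was within the WT range and the other 3 Flcn KO libraries were below it (log2 fold change -0.60 with SE 0.28, adjusted p = 0.341 by edgeR). Of the 15 log2 fold changes 7 were above 0.

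Peli1 had 22 peaks, 19 of them tested, and 17 of the 19 had a log2 fold change above 0, with a median of 0.19 and a range of -0.13 to 0.63. Over all tested peaks of the 10 genes 50 of 78 lay above 0 (64.1%), and over all tested peaks of the series 50.6%. None passed the edgeR test (2 higher and 0 lower at an unadjusted p below 0.05; DESeq2 and limma-voom also called 0). The start-site peak (chr11:21090919-21091542), its highest, had 95.4, 136, 138 and 158 CPM in Flcn KO, against 105, 93.5, 114 and 106 CPM in WT. Flcn KO library 1 was within the WT range and the other 3 were above it. The summed peaks of the Treg and CD4 T cell markers likewise had Flcn KO library 1 within the WT range and the other 3 above it, with 1625, 1869, 1895 and 1937 CPM in Flcn KO and at most 1710.2 CPM in WT, and so did those of the NK cell markers, with 229, 273, 280.2 and 309 CPM in Flcn KO and at most 251 CPM in WT. Most of the NK cell sum came from peaks at the single gene Klrb1c. The part of either marker list in the Peli1 values was not tested. The start-site peak was not called with all libraries (log2 fold change 0.32 with SE 0.11, adjusted p = 0.153 by edgeR). It was called without Flcn KO library 1 (log2 fold change 0.45 with SE 0.10, adjusted p = 0.00350 by edgeR). Leaving out that library also raised the number of calls over all peaks, from 1133 to 1720, so the gain was not particular to Peli1. Leaving out any other library gave no call, with an adjusted p by edgeR of 0.151 (without WT library 3) to 0.457 (without Flcn KO library 4).

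The next 2 Peli1 peaks were named after their values were seen. A peak 21.9 kb beyond the gene (chr11:21172272-21172699) averaged 34.8 ± 8.60 CPM in Flcn KO and 26.1 ± 5.90 CPM in WT (SD, n = 4 each, log2 fold change 0.42 with SE 0.18, adjusted p = 0.293 by edgeR). A weak peak 41.5 kb beyond it (chr11:21191805-21192241) had 7.04, 7.48, 6.96 and 6.86 CPM in Flcn KO, against 5.40, 5.80, 5.10 and 4.43 CPM in WT, so that every Flcn KO library lay above every WT library without passing the test (log2 fold change 0.45 with SE 0.30, adjusted p = 0.591 by edgeR).

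Stub1, the shortest of the genes at 2286 bp, had a single peak, over its start site (chr17:25832799-25833197), with 27.4, 31.0, 22.1 and 18.7 CPM in Flcn KO, against 30.3, 21.0, 27.5 and 29.5 CPM in WT. The groups overlapped (log2 fold change -0.11 with SE 0.18, adjusted p = 0.865 by edgeR), and the neighbouring gene Jmjd8 lies 956 bp from the same peak. Rc3h1 had 3 peaks, 2 of them tested. Its start-site peak (chr1:160906049-160906621) had 54.9, 77.8, 51.0 and 52.6 CPM in Flcn KO, against 56.0, 45.7, 59.2 and 62.0 CPM in WT, with Flcn KO library 2 above the other 7 libraries (log2 fold change 0.09 with SE 0.13, adjusted p = 0.863 by edgeR). The second, 43.0 kb from the gene, averaged 5.84 ± 1.54 CPM in Flcn KO and 5.92 ± 1.25 CPM in WT (SD, n = 4 each).

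**Figure D4:**
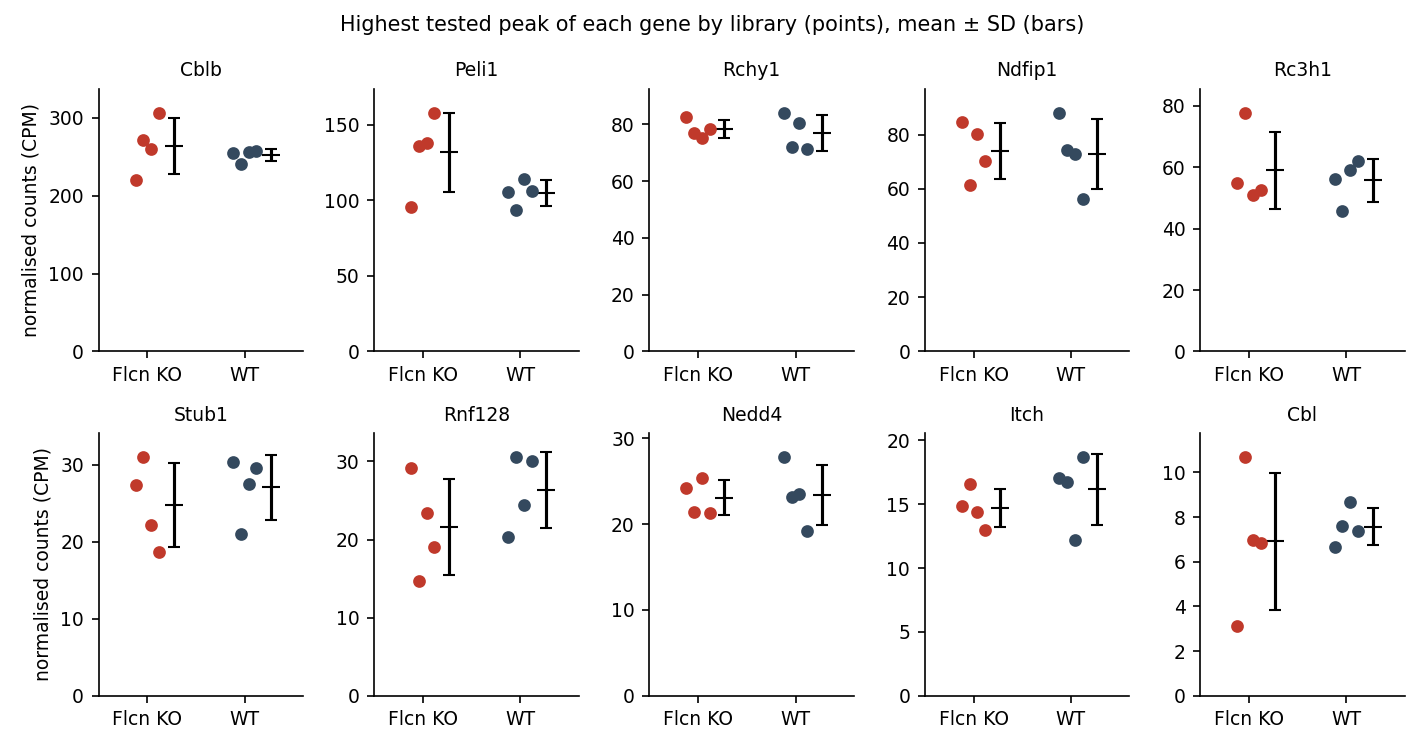
Normalised counts (CPM, linear axes from 0) of the highest tested peak of each of the 10 genes in the 4 Flcn KO and 4 WT libraries, with mean and SD. The groups overlap in all 10 panels, and at Peli1 3 of the 4 Flcn KO libraries lie above the WT range.

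Per length of peak, the highest peaks spanned a wide range of levels. Averaged over all 8 libraries, the level was 337 CPM per kb at the Cblb start site, 189 at Peli1, 149.9 at the outer Ndfip1 peak, 100.2 at Rc3h1, 76.0 at Rchy1 and 65.0 at Stub1. It was 52.1 CPM per kb at Nedd4, 42.5 at Itch, 31.5 at Rnf128 and 19.5 at Cbl. Cblb, Peli1 and Ndfip1 together held 71 of the 89 peaks. Of the 89, 74.2% lay inside the gene, against 63.9% of all peaks at any distance from a gene. The tested ones had a median level of 33.0 CPM per kb, against 23.0 over all tested peaks. Their median coefficient of variation was 21.9% in Flcn KO and 19.3% in WT. Over all tested peaks it was 24.0% in Flcn KO and 21.7% in WT. The 89 leave out 31 peaks that had these genes nearest but lay beyond 50 kb, whereas the values over all peaks have no such limit. The sets are therefore unlike, and no difference in position, level or variation is read from these values.

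After the peaks had been examined, the counts of all peaks of a gene were summed and fitted over 13483 genes. Of these 1.87% were called, and 0 of the 10 genes (edgeR; at an unadjusted p below 0.05, which 12.6% of all genes had, there were Peli1 and Rchy1). Peli1 had 336, 433, 447 and 435 CPM in Flcn KO, against 324, 367, 349 and 325 CPM in WT over its peaks (log2 fold change 0.27 with SE 0.09, adjusted p = 0.108 by edgeR). Rchy1 had 105, 93.1, 97.8 and 96.8 CPM in Flcn KO, against 128, 126, 115 and 105 CPM in WT (log2 fold change -0.27, SE 0.09), a sum that holds the far peak known when the gene was chosen and so is a description. For the other 8 genes the change lay between -0.25 and 0.11. At Cblb the sums averaged 1364 ± 131 CPM in Flcn KO and 1261 ± 64.4 CPM in WT (SD, n = 4 each), and the 95% interval of the ratio was 0.970 to 1.20. At Ndfip1 the 95% interval of the log2 fold change was -0.18 to 0.14.

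**Figure D5:**
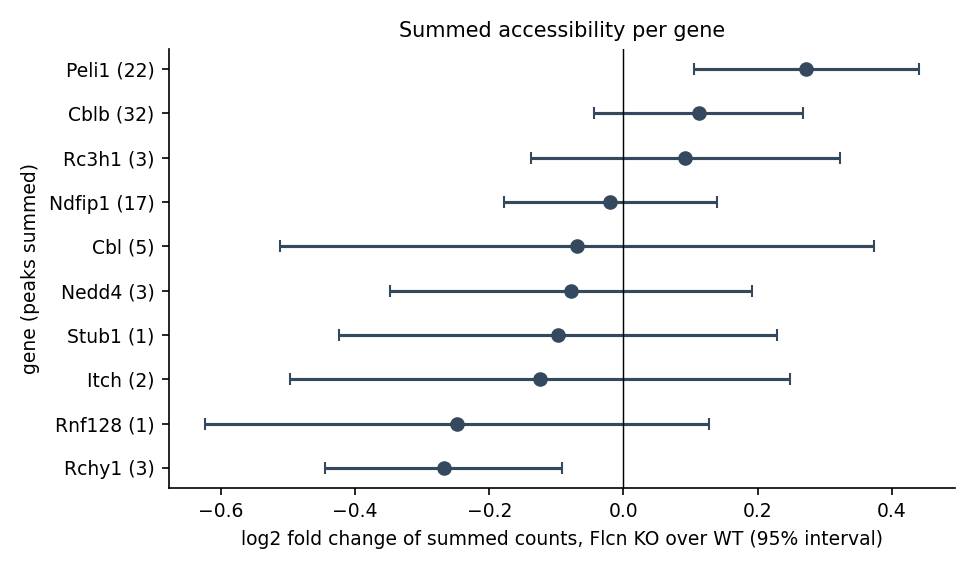
Log2 fold change of the summed counts of each gene, Flcn KO over WT, with 95% intervals that are not adjusted for the number of genes. Peli1 (0.27) and Rchy1 (-0.27) stand at the ends, and the intervals of the other 8 genes include 0.

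The libraries of the groups did not overlap at 3 of the 78 tested peaks (3.85%, beside 7.59% over all tested peaks, 4.03% higher and 3.56% lower), namely the inner and the far Rchy1 peaks, lower in Flcn KO, and the outer Peli1 peak, higher in Flcn KO. The far Rchy1 peak was known to be lower when the genes were chosen, so its place in this count was fixed by that choice. The 11 untested peaks held at most 20 counts in any library and lay at Cbl and Peli1 (3 each), Ndfip1 (2), and Itch, Nedd4 and Rc3h1 (1 each). The farthest peak within the 50 kb limit was the outer Rc3h1 peak given above, and the nearest beyond it lay 54.8 kb from Peli1, with 1.31 ± 0.770 CPM in Flcn KO and 1.79 ± 1.55 CPM in WT (SD, n = 4 each).

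A list of 47 other genes that act on ubiquitin or on receptor turnover had 264 peaks at 46 of them. Of 224 tested, 5 rose, 3 fell and 216 did not pass the test (3.57% called, beside 2.37% over all tested peaks), with a median log2 fold change of 0.03. This list too was chosen with earlier results of these data known. Its calls are therefore descriptions, and nothing is read from their share or from the kinds of gene they lie at. Several calls lay at relatives of the genes above. A peak inside Ndfip2, the paralog of Ndfip1, rose to 11.4 ± 1.25 CPM in Flcn KO, against 5.05 ± 1.47 CPM in WT (SD, n = 4 each, log2 fold change 1.18 with SE 0.28, adjusted p = 0.0148 by edgeR). Inside Wwp1, a HECT ligase of the Nedd4 family, a peak rose to 7.60 ± 2.35 CPM in Flcn KO, against 2.77 ± 0.770 CPM in WT (log2 fold change 1.47 with SE 0.36, adjusted p = 0.0169 by edgeR). Inside Nedd4l, of the same family, a peak fell to 13.6 ± 1.37 CPM in Flcn KO, against 25.8 ± 4.11 CPM in WT (log2 fold change -0.92 with SE 0.19, adjusted p = 0.00362 by edgeR).

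The other calls of that list lay at regulators of antigen receptor, Notch and NF-kB signalling. A peak 5.02 kb from Tnfaip3, which encodes the ubiquitin-editing enzyme A20, rose to 8.0 ± 3.40 CPM in Flcn KO, against 1.85 ± 0.961 CPM in WT (SD, n = 4 each, log2 fold change 2.07 with SE 0.41, adjusted p = 0.00224 by edgeR). Inside Dtx1, which encodes the ligase Deltex1, a peak rose to 26.3 ± 5.26 CPM in Flcn KO, against 14.5 ± 1.23 CPM in WT (log2 fold change 0.86 with SE 0.19, adjusted p = 0.00706 by edgeR). Inside Ubash3b, which encodes a phosphatase that dampens T cell receptor signalling, a peak fell to 3.69 ± 1.26 CPM in Flcn KO, against 9.85 ± 0.833 CPM in WT (log2 fold change -1.37 with SE 0.31, adjusted p = 0.00819 by edgeR). Sla encodes an adaptor that works with Cbl and lies within Tg, so its peaks cannot be told apart from peaks of Tg. It held a peak that rose (log2 fold change 0.63 with SE 0.17, adjusted p = 0.0322 by edgeR) and a weaker one that fell (log2 fold change -1.54 with SE 0.42, adjusted p = 0.0480 by edgeR). The weaker peak had 5.08, 1.07, 4.48 and 0.762 CPM in Flcn KO, against 13.3, 11.6, 5.61 and 4.92 CPM in WT. Its Flcn KO counts were 26, 4, 18 and 2. The groups overlapped at their edges there, and WT libraries 1 and 2 were higher than WT libraries 3 and 4.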

How the data were processed

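Raw counts per peak in 8 ATAC-seq libraries were deposited by the authors, in 1 table over 57199 peaks (mm10). The submitters' processing notes name MACS2 2.1.1 and bedtools 2.25.0, and also BWA 0.7.16 with Trimmomatic 0.36, SAMtools 1.9 and Picard 2.9.4; their settings and any shift of cut sites are not stated there. Even values made up 88.7% to 92.7% of the counts in each library, so halved counts were tried as an alternative.

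Groups followed the sample labels. Counts were fitted with edgeR 4.0.16 (R 4.3.3; TMM scaling, filterByExpr with a minimum count of 10, robust quasi-likelihood, genotype only) over 47859 peaks, with Benjamini-Hochberg adjustment over all of them and a threshold of 0.05; the script was tested on simulated data. SE is the log2 fold change divided by the square root of F. Alternatives used DESeq2 1.42.0, limma 3.58.1, other scalings and filters, and leaving out each library. RefSeq spans carry no exons here, so positions are inside or outside a gene. For each gene the highest peak, peaks within 1000 bp of a gene end, the peak of lowest p and every called peak are named. The genes, the list of related genes and the rules were chosen with earlier results of these data known. The B cell marker list is not reported here.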

Additional observations from a re-analysis of the deposited data

Results flagged for a closer look

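In 4 of 62 groups of 4 libraries checked, 1 library stood apart from the other 3 by Dixon's criterion (the gap to the nearest library over the whole range), which chance gives in about 1 group in 20. At the Cblb start-site peak, WT library 2 had 240 CPM and the other WT libraries 255 to 257 CPM. At the Ndfip1 peak at chr18:38421913-38422140, Flcn KO library 2 had 9.08 CPM and the other Flcn KO libraries 5.33 to 5.87 CPM. At the Rc3h1 start-site peak, Flcn KO library 2 had 77.8 CPM and the other Flcn KO libraries 51.0 to 54.9 CPM. Over the summed Peli1 peaks, Flcn KO library 1 had 336 CPM and the other Flcn KO libraries 433 to 447 CPM.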

How the results depend on the processing

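Among the 78 tested peaks, leaving out 1 library at a time gave 0 to 1 peaks called higher and 1 to 2 called lower, with a median log2 fold change of 0.04 to 0.14. Over all peaks these fits called 638 (without WT library 2) to 1720 (without Flcn KO library 1), against 1133 with all libraries. limma-voom called 1 of the peaks lower, as did keeping only peaks inside genes, which removes the far Rchy1 peak by construction. Over 335 values of 21 named peaks under the alternatives, 314 kept direction and side of the threshold. The 14 that turned sign were all uncalled and all came from leaving out 1 library: the log2 fold change then ranged over -0.458 to 0.120 at Cbl (44181554), -0.0119 to 0.143 at the Cblb start site, -0.0781 to 0.134 at Ndfip1 (38406162), -0.101 to 0.0782 and -0.200 to 0.0814 at the Nedd4 peaks (72660094 and 72766729), -0.0740 to 0.148 at the Rc3h1 start site and -0.00946 to 0.0713 at the Rchy1 start sites. The other 7 were the 6 lost calls at Cblb and the call gained at Peli1 given above. The cause of these shifts was not tested.

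For libraries of equal replicate number, correlations of their deviations from the group means were 0.08, -0.05, 0.06 and 0.05. Libraries of unequal number gave -0.15 to 0.17, so these values cannot decide whether libraries were paired. With a replicate block, 0 peaks of these genes were called higher and 2 lower, with a median of 0.07, and 1375 were called over all peaks. The far Rchy1 and the called Cblb peak rest on 2 to 28 counts in each Flcn KO library, which limits how closely their fold is known.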
